A study of Homo sapiens with 6 samples.

Results

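NRF2 (gene symbol NFE2L2) is the transcription factor that switches on antioxidant and detoxifying enzymes, and KEAP1 is the protein that holds it in check. The genes described here are these regulators and the target genes HMOX1, NQO1, GCLC, GCLM, TXNRD1, SRXN1 and OSGIN1. They were chosen by gene symbol, and each of the 9 symbols matched 1 row among the 58735 genes of the count table. All 9 passed the filter on low counts, as did 17215 genes in all.

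The levels come from RNA sequencing of 6 libraries of LX-2, an immortal line of human hepatic stellate cells, the liver cells that make scar matrix when activated. By their labels all 6 were wild-type cells transfected with siRNA (small interfering RNA) to NSUN2, a methyltransferase of cytosines in RNA, and the design text names NAT10 as well. Untreated cells (n = 3 libraries) had only the siRNA, and TGF-β1 cells (n = 3) were also given human recombinant TGF-β1, a fibrogenic cytokine, for 24 hours at a dose of 5 ng/ml that began 48 hours after the transfection. Cells without siRNA were not analysed here, all libraries are of 1 cell line, and whether replicates were separate cultures is not labelled, so p-values cover only the spread between these libraries.

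NRF2 is made continuously and, in resting cells, is held by KEAP1, an adaptor of the CUL3 ubiquitin ligase that sends it for degradation. Oxidants and electrophiles modify cysteines of KEAP1, NRF2 then accumulates, pairs with a small MAF protein and binds antioxidant response elements in the DNA near its targets. This control acts mainly on the protein, so a transcript level of NFE2L2 does not report the activity of the factor. In the liver the pathway is known for supplying glutathione, for reducing thioredoxin and quinones and for breaking down haem.

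Libraries held 25828504 to 30034762 counts, and 1 CPM, the unit of normalised levels here (a count scaled to library size), corresponded to 24.7 to 31.3 counts. The groups separated on the first principal component (73.6% of the variance), and TGF-β1 replicate 1 lay apart from the other TGF-β1 libraries on the second (-16.7 against 5.34 and 11.8, 7.51% of the variance). NSUN2 was measured at 82.9 ± 1.47 CPM without TGF-β1 and at 101 ± 3.07 CPM with it (SD, n = 3). It was called higher with TGF-β1 (log2 fold change 0.28, adjusted p = 1.57e-06, edgeR), and NAT10 was not called (0.03, adjusted p = 0.726, edgeR). The knockdown of NSUN2 cannot be sized without libraries that lack the siRNA. Of 12 stellate cell and myofibroblast markers 9 were tested. With TGF-β1, 5 rose (COL1A1, COL3A1, PDGFRB, SPARC and VIM) and 4 fell (ACTA2, HAND2, NGFR and RELN; edgeR, adjusted p under 0.05). That is 100% called, beside 38.9% of all tested genes and 50.8% of those averaging 5 CPM or more. RELN, at 4.7 CPM without and 0.464 CPM with TGF-β1 on 4 to 149 counts, passed the filter on low counts only through the untreated libraries. Its difference is a description, and the count of 4 includes it. The summed level of the 12 markers, nearly all COL1A1, SPARC and VIM, was 3370 to 3420 CPM without and 6650 to 7360 CPM with TGF-β1. LRAT was at 0 counts, and DES and LUM stayed under 1 CPM in every library. Hepatocyte markers (10 listed, 9 under 1 CPM in every library; APOB, CYP3A4, FGB and TTR at 0) summed to 23.6 to 27.4 CPM and 21.3 to 23.3 CPM. Macrophage markers (10 listed, 8 under 1 CPM; TYROBP, C1QA, C1QB and VSIG4 at 0) summed to 11.6 to 15.1 CPM and 14.7 to 18.1 CPM, with CD14 lower (8.49 and 3.71 CPM) and CSF1R higher (4.34 and 12.3 CPM). Cholangiocyte markers (8 listed, 5 under 1 CPM; CFTR at 0) summed to 98.3 to 101 CPM and 74.3 to 75.9 CPM, mostly SOX9 and SPP1. Endothelial markers (10 listed, 5 under 1 CPM; LYVE1 and CLEC4G at 0) summed to 224 to 237 CPM and 219 to 229 CPM, mostly TIE1. The part of these markers in the differences reported here was not tested. In bulk RNA, fewer cells of a kind and less RNA per cell cannot be told apart.

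With TGF-β1 set against untreated cells, the question was how the NRF2 genes respond to the cytokine in NSUN2 siRNA cells. The 9 genes did not move as a block. TXNRD1 (thioredoxin reductase), OSGIN1 and NQO1 (a quinone reductase) were 2.07-fold, 1.88-fold and 1.56-fold lower with TGF-β1, while GCLM, the modifier subunit of the enzyme that starts glutathione synthesis, was 1.77-fold higher and HMOX1, haem oxygenase, 1.25-fold higher. NFE2L2 itself was at 57.2 ± 2.98 CPM without and 56.0 ± 2.71 CPM with TGF-β1 (SD, n = 3). By edgeR's quasi-likelihood test with a Benjamini-Hochberg adjusted p under 0.05, 3 of the 9 rose, 4 fell and 2 did not pass, a share of 77.8% called against a background of 38.9% of all 17215 tested genes (20.2% higher and 18.7% lower). The members are better counted than most genes, and in the 11134 tested genes that averaged 5 CPM or more the background was 50.8% (27.8% higher and 23% lower). The median log2 fold change was -0.03 over the 9 genes and -0.01 over all tested genes.

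**Figure D1:**
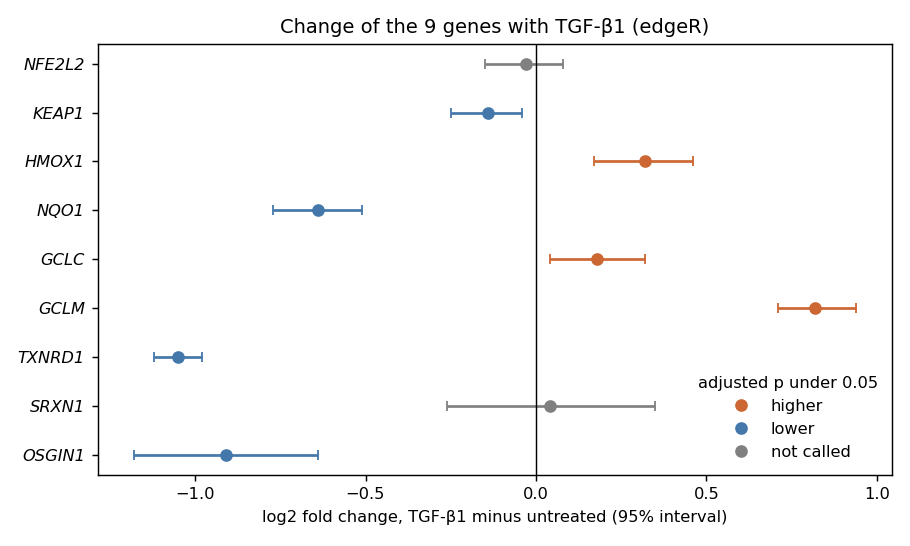
The log2 fold change of each gene with TGF-β1 relative to untreated cells (points) with its 95% interval from edgeR (bars), coloured by whether the adjusted p was under 0.05. TXNRD1 (-1.05), OSGIN1 (-0.91) and NQO1 (-0.64) lie to the left and GCLM (0.82) to the right, with NFE2L2 and SRXN1 on the zero line.

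Matches to the antioxidant response element near the start sites are shown here because genes that hold the same core letters moved in opposite directions. Start-site windows of 300 bases (250 before and 50 after) were available from RefSeq (GRCh38.p14) for 8 of the 9 genes, in 11 windows since some genes have more than 1 start. The core letters of the element, TGACNNNGC, were searched on both strands. They occurred in windows of GCLM, TXNRD1 and KEAP1, and in 13.3% of all 35116 windows (16.1% of 27305 genes). The matches are printed on the strand that reads TGAC, with 10 flanking bases, and the capitals mark the core.
GCLM, chr1:93909446-93909474, plus strand, 34 to 26 bases before the start: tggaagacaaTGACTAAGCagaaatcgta
KEAP1, chr19:10502784-10502812, plus strand, 31 to 23 bases before the second start: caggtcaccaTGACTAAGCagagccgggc
TXNRD1, chr12:104286920-104286948, minus strand, 102 to 94 bases before the second start: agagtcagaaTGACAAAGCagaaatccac
TXNRD1, chr12:104215670-104215698, plus strand, 99 to 91 bases before the first start: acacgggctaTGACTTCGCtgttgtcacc
TXNRD1, chr12:104215761-104215789, minus strand, spanning the first start: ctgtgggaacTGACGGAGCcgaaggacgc
KEAP1, chr19:10502807-10502835, minus strand, 54 to 46 bases before the second start: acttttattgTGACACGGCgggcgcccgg

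GCLM and KEAP1 held the identical 9-letter core TGACTAAGC, and the core at the second TXNRD1 start matched it at 8 of 9 letters. The search itself fixes 6 of the 9 letters, so any matches share at least these. GCLM rose, and TXNRD1 and KEAP1 fell. The fall of KEAP1 was small, and its call was lost in 5 of 18 alternative settings. The printed site at the second TXNRD1 start and both KEAP1 sites lie in annotated exons of longer transcripts of the same gene, so they are promoter positions for only some of the transcripts. OSGIN1 had no such core but held the AP-1 letters TGANTCA, which 7.71% of all windows and 9.37% of genes hold. These letters did not overlap an antioxidant core in any window of the 8 genes. Its match is printed because OSGIN1 had the second largest decrease of the 9, with the capitals marking the AP-1 letters.
OSGIN1, chr16:83953133-83953159, plus strand, 97 to 91 bases before the start: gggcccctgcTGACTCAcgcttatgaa

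The windows of NFE2L2, GCLC, NQO1 and SRXN1 held neither set of letters. A match is a description of the letters, and no link between a match and a change in level was tested. The absence of the letters concerns these windows alone.

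Among the regulators, NFE2L2 (chromosome 2, 177227595 to 177392697, minus strand, hg38) had 59.3, 58.5 and 53.8 CPM in the untreated libraries and 59.0, 55.0 and 53.9 CPM in the TGF-β1 libraries. The groups overlapped almost completely. The log2 fold change was -0.03 ± 0.06 (SE; adjusted p = 0.696, edgeR), with a 95% interval of -0.15 to 0.08. Other annotated genes cover 20.9% of its exonic bases, most of them by AC019080.1 on the same strand, which had 12 to 34 counts per library against 1395 to 1853 for NFE2L2. With scaling by library totals alone the log2 fold change became -0.15 and passed the test (adjusted p = 0.0251, edgeR); that scaling shifted the median of all genes by -0.12.

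KEAP1 (chromosome 19, 10486120 to 10503741, minus strand) had 65.0, 68.9 and 63.1 CPM without TGF-β1 and 59.1, 59.2 and 59.8 CPM with it. All 3 TGF-β1 libraries lay below all 3 untreated ones. The fall was small, by 0.14 ± 0.05 on the log2 scale (SE; adjusted p = 0.0233, edgeR), and close to the threshold. It did not pass with untreated replicate 2 left out (-0.11, adjusted p = 0.132, edgeR), nor with TGF-β1 replicate 1 left out (0.0573), replicate 2 (0.0658) or replicate 3 (0.0547).

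The ratio of the deposited FPKM values (a per-length scale that also corrects for library size) of NFE2L2 to KEAP1 was 0.574, 0.535 and 0.536 in untreated libraries and 0.628, 0.584 and 0.566 with TGF-β1. Both groups overlap, since untreated replicate 1 lay above TGF-β1 replicate 3. The means were 0.548 ± 0.022 and 0.593 ± 0.032 (SD, n = 3), a difference that did not pass an exact two-sided permutation test (p = 0.2, where 3 against 3 allows no p under 0.1).

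Both subunits of glutamate-cysteine ligase, the enzyme that starts glutathione synthesis, were called higher, GCLM in every alternative setting and GCLC in 9 of 18. GCLM (chromosome 1, 93885205 to 93909456, minus strand) encodes the modifier subunit, which raises the efficiency of the catalytic subunit. Without TGF-β1 it had 59.0, 55.2 and 48.1 CPM, and with it 97.7, 93.5 and 96.6 CPM. The groups stood well apart, and the lowest TGF-β1 library was above the highest untreated one by more than the whole untreated range. Its log2 fold change of 0.82 ± 0.06 (SE; adjusted p = 1.93e-15, edgeR) exceeded in size that of 88.9% of tested genes, and rises of at least 0.5 were called for 6.46% of them.

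GCLC (chromosome 6, 53497341 to 53616970, minus strand), the catalytic subunit, had 33.4, 31.4 and 35.5 CPM without TGF-β1 and 35.3, 39.6 and 38.6 CPM with it. The groups overlapped, because TGF-β1 replicate 1 lay just below untreated replicate 3. The rise of 0.18 ± 0.07 on the log2 scale (SE; adjusted p = 0.0347, edgeR) was lost in 9 of 18 alternative settings. Among them, leaving out untreated replicate 1 gave an adjusted p of 0.0846, untreated replicate 2 one of 0.184, TGF-β1 replicate 2 one of 0.144 and TGF-β1 replicate 3 one of 0.0938 (edgeR). With library totals alone its log2 fold change was 0.06.

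Per base of annotated exon, GCLM was above GCLC in every library. FPKM divides by all annotated exons of a gene, 8646 bases for GCLC and 5420 for GCLM. The ratio therefore does not show which subunit had more transcripts. The ratio of GCLM to GCLC FPKM was 2.82, 2.80 and 2.16 in the untreated libraries and 4.41, 3.76 and 4 with TGF-β1, and the groups did not overlap. The mean ratio went from 2.60 ± 0.38 to 4.06 ± 0.33 (SD, n = 3), 1.56-fold higher, with the smallest p that an exact two-sided permutation test of 3 against 3 can give (p = 0.1). A ratio within a library does not depend on how libraries are scaled to each other.

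**Figure D2:**
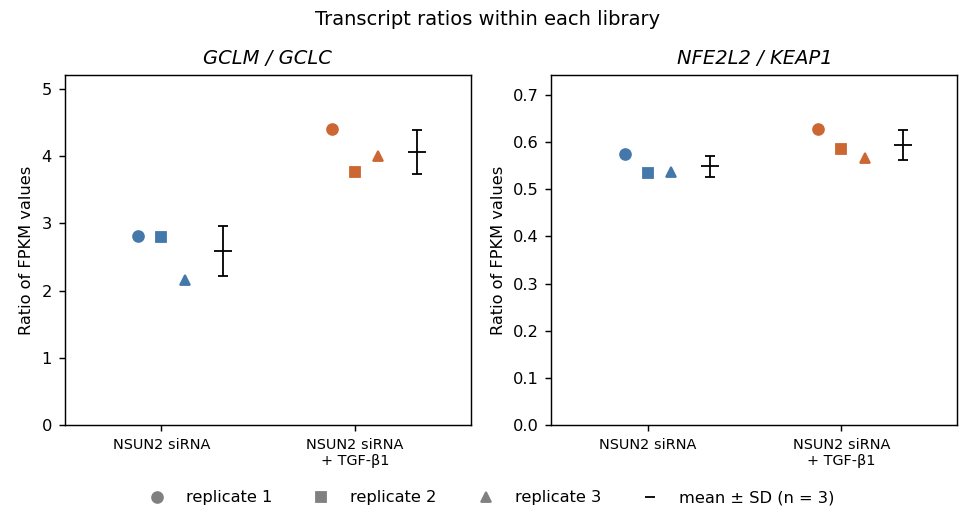
Ratios of deposited FPKM values within each library (symbols give the replicate) for GCLM to GCLC and NFE2L2 to KEAP1, with the mean and SD of 3 libraries beside them. The GCLM to GCLC ratio lies between 2.16 and 2.82 without TGF-β1 and between 3.76 and 4.41 with it, while the NFE2L2 to KEAP1 ratios of the groups overlap.

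TXNRD1 showed the largest change of the 9 (chromosome 12, 104215779 to 104350305, plus strand). It encodes the cytosolic selenoprotein that uses NADPH to reduce thioredoxin. Untreated libraries held 371.7, 389.9 and 361.5 CPM and TGF-β1 libraries 179.3, 183.4 and 180.6 CPM, on 4435 to 11882 counts. The TGF-β1 libraries lay within a few CPM of each other, all far below the untreated ones. The log2 fold change was -1.05 ± 0.03 (SE; adjusted p = 2.78e-27, edgeR); decreases of that order (log2 fold change of -1 or less) were called for 3.4% of tested genes.

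SRXN1, sulfiredoxin, repairs over-oxidised peroxiredoxins and so acts beside the thioredoxin system (chromosome 20, 646615 to 653370, minus strand). Its CPM values were 5.66, 6.33 and 5.85 without TGF-β1 and 5.66, 6.35 and 6.37 with it. The groups overlapped fully and no change was called (log2 fold change 0.04 ± 0.15, SE; adjusted p = 0.859, edgeR), with a 95% interval of -0.26 to 0.35. Its level may be understated: 85.0% of its exonic bases are also exons of AL121758.1 on the same strand, how shared reads were counted is not known here, and the partner itself had 1 to 5 counts. Its direction flipped with library totals alone (-0.08), again without a call.

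NQO1 reduces quinones with a 2-electron transfer that avoids reactive semiquinones, and is a standard readout of NRF2 activity (chromosome 16, 69706996 to 69726951, minus strand). The untreated libraries had 213.9, 232.6 and 199.6 CPM, the TGF-β1 libraries 127.2, 145.7 and 140.7 CPM. All TGF-β1 libraries lay below all untreated ones. The log2 fold change was -0.64 ± 0.06 (SE; adjusted p = 1.13e-06, edgeR). An annotated antisense gene, AC092115.2, covers 17.7% of its exonic bases and had 0 counts in all 6 libraries.

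HMOX1 cleaves haem into biliverdin, iron and carbon monoxide, and is repressed by BACH1 as well as induced by NRF2 (chromosome 22, 35380361 to 35394214, plus strand). It moved the other way from NQO1, at 29.4, 34.3 and 29.4 CPM in the untreated libraries and 36.8, 39.8 and 39.4 CPM in the TGF-β1 libraries. The groups did not overlap, although untreated replicate 2 came near to the lowest TGF-β1 library. The rise was 0.32 ± 0.07 on the log2 scale (SE; adjusted p = 3.19e-04, edgeR).

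OSGIN1 is an oxidative stress-induced growth inhibitor (chromosome 16, 83948282 to 83966332, plus strand). Its CPM values were 11.5, 11.9 and 11.0 without TGF-β1 and 5.66, 7.05 and 5.52 with it. Every TGF-β1 library lay below every untreated one, with a coefficient of variation of 13.9% among the TGF-β1 libraries, the widest of any of the 9 genes in either group. The log2 fold change was -0.91 ± 0.13 (SE; adjusted p = 2.25e-07, edgeR). Exons of AC009119.2 on the same strand cover 13.9% of its exonic bases, and that gene had 0 to 14 counts.

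**Figure D3:**
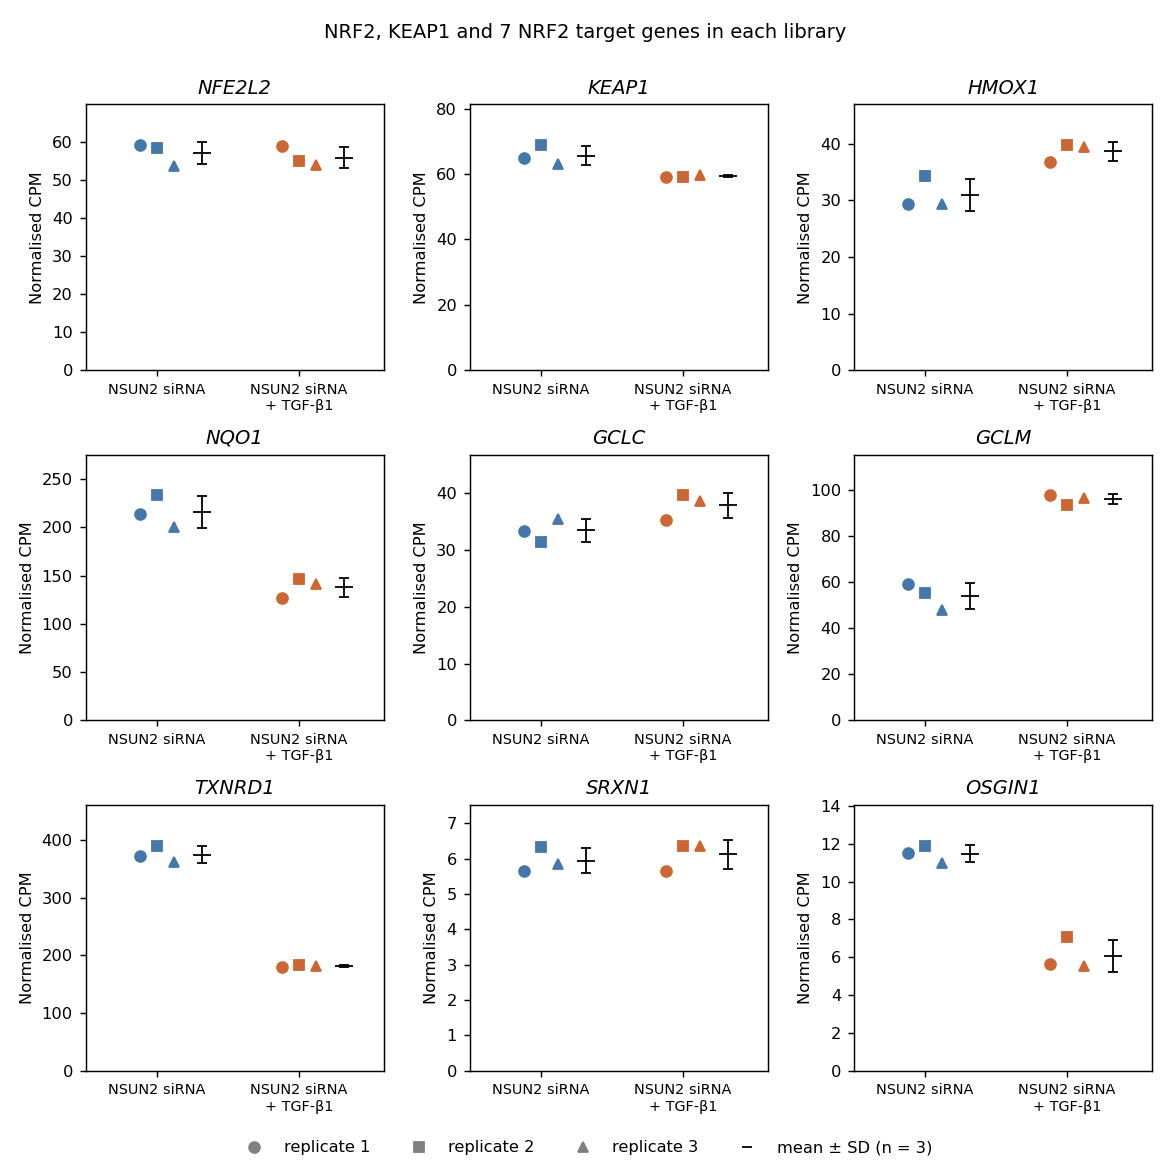
Normalised CPM of each gene in the 3 untreated and 3 TGF-β1 libraries (symbols give the replicate, black bars the mean and SD), with each axis starting at 0. The groups do not overlap for KEAP1, HMOX1, NQO1, GCLM, TXNRD1 and OSGIN1 and overlap for NFE2L2, GCLC and SRXN1.

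For 6 of the 9 genes the groups did not overlap, 2 above and 4 below, where 47.4% of all tested genes showed no overlap. TGF-β1 replicate 1, the library apart on the second component, was the lowest of its group for HMOX1, NQO1, GCLC, TXNRD1, SRXN1 and KEAP1, and the highest for NFE2L2 and GCLM. Without it the log2 fold change was -1.04 for TXNRD1, 0.81 for GCLM, -0.58 for NQO1, -0.86 for OSGIN1 and 0.36 for HMOX1. Each of these 5 genes was called with any 1 of the 6 libraries left out.

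On the per-length scale, NQO1 had the highest value of the 9 in untreated cells (64.2 ± 4.90 FPKM, SD, n = 3). Next came TXNRD1 (54.2 ± 2.04), KEAP1 (16.9 ± 0.74), HMOX1 (12.5 ± 1.13) and GCLM (9.69 ± 1.01). NFE2L2 (9.28 ± 0.49), GCLC (3.75 ± 0.23), OSGIN1 (3.21 ± 0.13) and SRXN1 (2.14 ± 0.12) followed. GCLM and NFE2L2 were the only neighbours in that order whose libraries overlapped. With TGF-β1 the order became NQO1 (41.2 ± 2.87), TXNRD1 (26.3 ± 0.29), GCLM (17.2 ± 0.41), HMOX1 (15.6 ± 0.67), KEAP1 (15.4 ± 0.12), NFE2L2 (9.11 ± 0.43), GCLC (4.26 ± 0.26), SRXN1 (2.21 ± 0.15) and OSGIN1 (1.71 ± 0.24), and here only HMOX1 and KEAP1 overlapped. GCLM thus moved from the fifth place to the third, and OSGIN1 from the eighth to the last. NQO1 and TXNRD1 lay at percentiles 97.0 and 96.3 of the tested genes in untreated cells and at 94.3 and 90.0 with TGF-β1. FPKM divides by all annotated exons of a gene, so this order is not one of transcript numbers. By CPM, TXNRD1 was above NQO1, at 374 against 215 without TGF-β1 and 181 against 138 with it.

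The summed FPKM of the 9 genes was 175.9, 185.6 and 166.3 in the untreated libraries and 128.9, 135.9 and 134.3 in the TGF-β1 libraries. These sums rest mostly on NQO1 and TXNRD1. TXNRD1 made up 30.3% to 31.4% of the sum without TGF-β1 and 19.5% to 20.2% with it, and GCLM 5.18% to 6.03% and 12.3% to 13.6%.

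**Figure D4:**
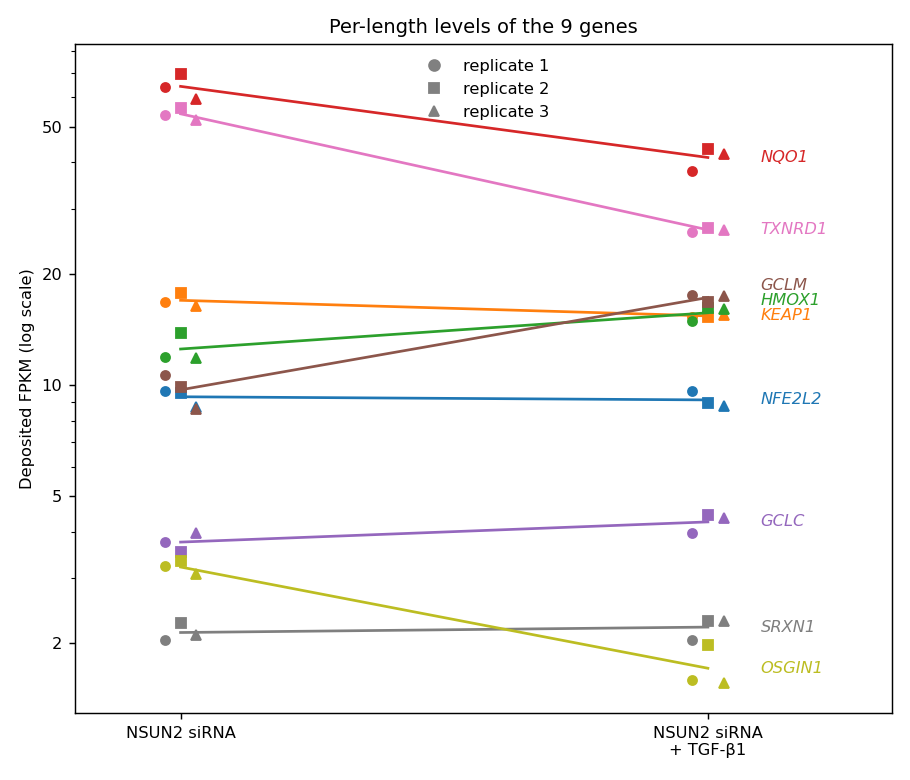
Deposited FPKM (log axis) of each gene in the untreated and TGF-β1 libraries, with lines joining the group means. NQO1 and TXNRD1 keep the highest FPKM values while GCLM rises past HMOX1 and KEAP1, and OSGIN1 falls below SRXN1.

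The genes with the most similar profiles were taken by root mean square distance over the 6 libraries, on log2 CPM centred on the untreated mean, among 9734 other genes that averaged 10 CPM or more. For NFE2L2 they were SLC25A23 (distance 0.021), C2CD3 (0.022) and CSNK1E (0.0278), with log2 fold changes of -0.05, -0.03 and -0.01. For TXNRD1 they were C11orf68 (0.034), FOXRED2 (0.0408) and ENPP2 (0.0417), with log2 fold changes of -1.08, -1.06 and -1.09. The libraries behind these distances are the same for all genes. The distance includes the TGF-β1 libraries, so the similar log2 fold changes follow from how the genes were chosen.

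The wider pathway was followed in 9 gene lists of 135 genes, of which 121 were tested. With TGF-β1, 24 of them rose, 49 fell and 48 did not pass (edgeR, adjusted p under 0.05), with a median log2 fold change of -0.14 against -0.01 for all tested genes. With library totals alone the split was 15 higher and 66 lower, and that of all genes 2019 higher and 5354 lower in place of 3471 and 3226. The share called was 50% in the lists of glutathione synthesis and of transferases and peroxidases, 52.9% for thioredoxin, 54.5% for NADPH supply, 58.3% for haem and iron, 61.1% for detoxification, 66.7% for NRF2 partners, 73.3% for ATF4 and 77.8% for superoxide. The background was 38.9% of all tested genes and 50.8% of those that averaged 5 CPM or more. The lists also hold genes under 5 CPM, so neither background is matched to them. The first 4 of these shares lie near 50.8%, and whether any list differs from it was not tested. All these shares pool both directions. Of the genes averaging 5 CPM or more, 27.8% were called higher and 23% lower. Whether any list differs from that split by direction was not tested. The superoxide share includes NOX4 and NOX5, which each passed the filter on low counts through a single group.

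**Figure D5:**
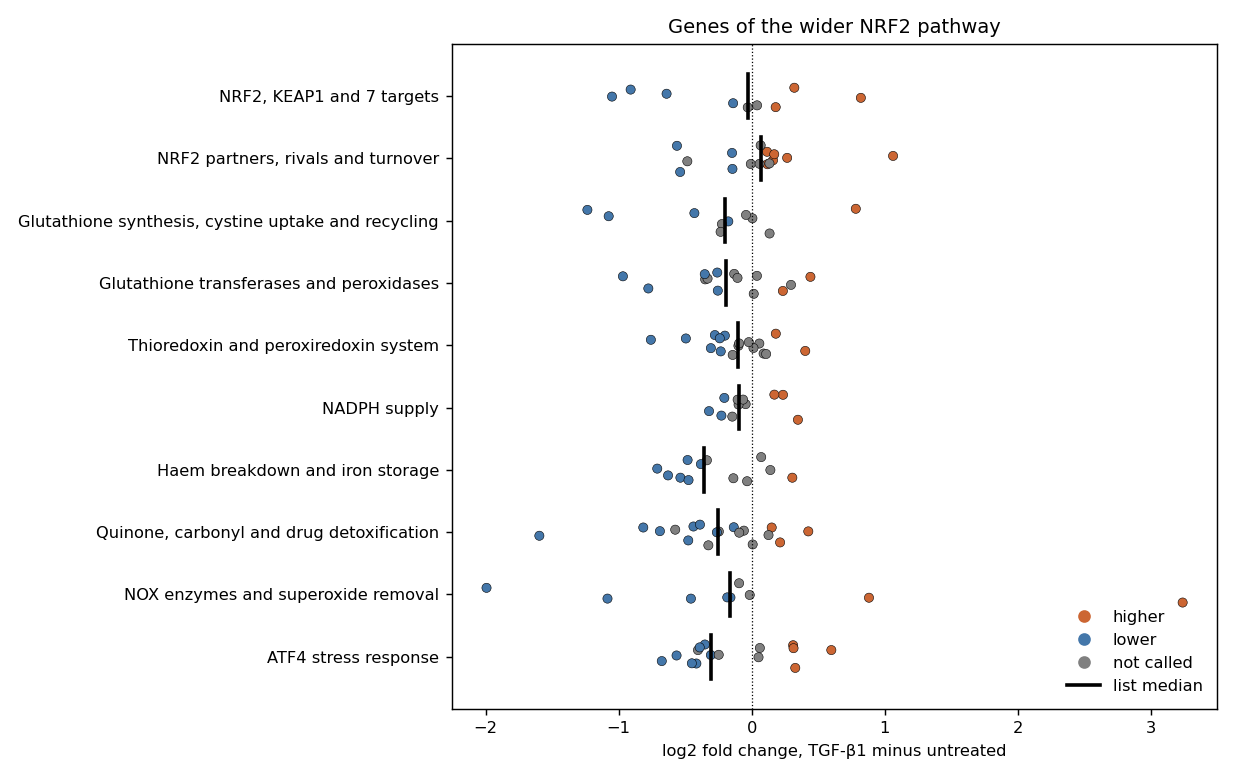
The log2 fold change with TGF-β1 of each tested gene (points, spread vertically for sight only) for the 9 genes and for the 9 lists of the wider pathway, coloured by call, with the median of each list as a black bar. List medians run from 0.07 for partners and turnover of NRF2 to -0.36 for haem breakdown and iron storage.

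Genes for the partners, rivals and turnover of NRF2 rose in 6 of 15 cases and fell in 4, with a median of 0.07. That is 66.7% called, beside 50.8% of genes averaging 5 CPM or more. MAFK, a small MAF partner, rose from 38.0 to 79.3 CPM (log2 fold change 1.06 ± 0.06, SE), and the partners MAFF and MAFG by 0.27 and 0.16. BACH1, the repressor that competes for the same elements, fell by 0.14, the NRF2 relative NFE2L3 by 0.56 and SQSTM1, a selective autophagy receptor that binds KEAP1, by 0.54. CUL3 and RBX1, the ligase subunits that work with KEAP1, rose by 0.12 and 0.17, and NFE2L1 by 0.12. The call of CUL3 was close to the threshold (adjusted p = 0.0489, edgeR), and the groups overlapped for RBX1. The count of rises in this list was 2 with upper-quartile factors or library totals alone, and that of decreases was 2 without TGF-β1 replicate 1.

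Genes of cystine uptake and glutathione recycling fell in 4 of 10 tested cases and rose in 1. That is 50% called, near the 50.8% of genes averaging 5 CPM or more. SLC7A11, the cystine transporter that supplies glutathione synthesis, went from 43.9 ± 3.31 to 18.6 CPM (log2 fold change -1.23 ± 0.08, SE), the glutaredoxin gene GLRX fell by 1.07, glutathione reductase (GSR) by 0.43 and glutathione synthetase (GSS) by 0.18. With library totals alone 7 of these genes fell. Glutathione transferases and peroxidases included 5 that fell and 2 that rose, of 14 tested, again 50% called and near that background. GSTM4 and GSTM2 had log2 fold changes of -0.97 and -0.78. They are related genes with overlapping annotated spans on the same strand, so the counting could split their reads. The peroxidases GPX1 and GPX4 fell by 0.35 and 0.26, and GSTO1 and GSTP1 rose by 0.44 and 0.23.

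In the thioredoxin and peroxiredoxin system 7 of 17 genes fell and 2 rose (52.9% called, near the 50.8% of genes averaging 5 CPM or more). TXNIP, the inhibitor of thioredoxin, fell by 0.76, TXN, thioredoxin itself, by 0.20, the peroxiredoxin genes PRDX2 and PRDX3 by 0.28 and 0.23, and the methionine sulfoxide reductase gene MSRA by 0.50. PRDX1 and MSRB3 rose by 0.40 and 0.18. The mitochondrial reductase TXNRD2 had a log2 fold change of -0.10 ± 0.05 (SE; adjusted p = 0.142, edgeR), against -1.05 for the cytosolic TXNRD1. Genes that supply NADPH, the electron donor of NQO1 and TXNRD1, divided evenly, with 3 of 11 higher and 3 lower. Their share called, 54.5%, was also near that background. MTHFD2, TKT and IDH1 rose by 0.35, 0.23 and 0.17, and NNT and PGD fell by 0.32 and 0.21; with library totals alone 8 of the 11 fell.

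Around HMOX1, genes of haem breakdown and iron storage included 6 that fell and 1 that rose, of 12 tested. That is 58.3% called, beside 50.8% of genes averaging 5 CPM or more. The ferritin chains FTL and FTH1 fell by 0.48 and 0.47, the iron exporter SLC40A1 by 0.63, the haem transporter SLC48A1 by 0.71, the biliverdin reductase BLVRB by 0.54 and ACO1 by 0.38, and the iron regulatory protein gene IREB2 rose by 0.31. Ferritin genes have many processed copies in the genome, so their counts carry that uncertainty. HMOX2, the constitutive haem oxygenase, had a log2 fold change of -0.03 ± 0.06 (SE; adjusted p = 0.712, edgeR). Whether HMOX1 and HMOX2 differed in their change was not tested.

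Around NQO1, quinone, carbonyl and drug detoxification genes included 8 that fell and 3 that rose, of 18 tested. That is 61.1% called, beside 50.8% of genes averaging 5 CPM or more. AKR1C1, an aldo-keto reductase, went from 21.0 ± 2.35 to 6.94 CPM (log2 fold change -1.60 ± 0.11, SE) and AKR1C3 from 7.04 to 3.98 CPM (-0.81). Members of that family are similar in sequence, so reads could be split among them. The exporter ABCC3 fell by 0.69, the epoxide hydrolase EPHX1 by 0.48 and NQO2, the closest relative of NQO1, by 0.44. UGDH, ABCC1 and CBR1 rose by 0.43, 0.21 and 0.15. With library totals alone 1 of the 18 rose.

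For sources and removal of superoxide, 5 of 9 tested genes fell and 2 rose. That is 77.8% called, beside 50.8% of genes averaging 5 CPM or more. NOX4, the oxidase that makes hydrogen peroxide in activated stellate cells, was low, at 0.198 CPM without and 1.92 CPM with TGF-β1, on 3 to 58 counts per library. It passed the filter on low counts only through the TGF-β1 libraries, so its difference is a description, and the count of 2 includes it. NOX5, at 0.671 CPM without and 0.167 CPM with TGF-β1 on 1 to 22 counts, passed only through the untreated libraries. Its difference is likewise a description, and the count of 5 includes it. Catalase (CAT) fell by 0.46 and the mitochondrial dismutase SOD2 by 0.18. Genes of the ATF4 stress response, which shares targets such as SLC7A11 with NRF2, included 7 that fell and 4 that rose, of 15 tested. Their share called was 73.3%, beside the same 50.8%. ATF4 rose by 0.33 and SLC7A5 by 0.60, while STC2 fell by 0.68 and DDIT3 by 0.57.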

How the data were processed

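The authors deposited whole-number read counts per gene and FPKM values for 6 libraries of this series. The reads had been handled with fastp and HISAT2 2.2.1 on build hg38, per the submitters' processing notes; no tool, strand setting or annotation for the counting is named in the sources used here. FPKM as deposited is the count over gene length and a single size per library, so it holds nothing independent of the counts. Both tables hold 6 more per-sample columns that fit none of the labelled samples; they stayed unused. All 58735 identifiers matched GENCODE release 29 in start, end and strand, which gave exon overlaps.

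Counts were tested with edgeR 4.0.16 in R 4.3.3 (TMM factors, filterByExpr with a minimum count of 10 and total of 15, robust glmQLFit and glmQLFTest, group as the only term, two-sided, Benjamini-Hochberg adjustment over 17215 genes). CPM is normalised to the TMM effective library size. The standard error is |log2 fold change| over the root of the F statistic, and intervals are 95%. Totals of 25828504 to 30034762 counts set the counting precision. Scripts were tested on simulated data.

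The members, lists and tests were chosen with earlier results of these data known. Named from each list were up to 3 called genes of at least 5 CPM with the largest change, any gene where a count in 1 direction was 3 or fewer, and, chosen after their values were seen, MAFF, MAFG, BACH1, CUL3, RBX1, NFE2L1, GSR, GSS, GPX1, GPX4, TXN, PRDX2, PRDX3, TXNRD2, FTL, FTH1, ACO1, HMOX2, EPHX1, NQO2, NOX5 and ATF4. A few genes taken by this rule are not reported here. Alternatives were DESeq2 1.42.0, limma 3.58.1, other scalings and filters, a replicate block and each library left out.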

Additional observations from a re-analysis of the deposited data

How the results depend on the processing

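Of 162 refits of single genes (9 genes under 18 alternatives), 145 kept direction and side of the threshold, 14 lost the call (9 for GCLC, 5 for KEAP1), and NFE2L2 gained one with library totals alone (-0.15). SRXN1 changed sign with upper-quartile factors (0.00 after rounding) and with library totals (-0.08), never with a call. Outside the left-out libraries, GCLC lost its call with upper-quartile factors (0.14), library totals (0.06) and limma on log2 FPKM (0.15, 0.18 and 0.15), and KEAP1 with unfiltered log2(FPKM + 1) (-0.13, adjusted p = 0.0583, limma). The members called higher numbered 2 or 3 and those called lower 3 to 5.

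With library totals alone 2019 genes rose and 5354 fell, 15 pathway genes rose in place of 24, 2 genes rose among NRF2 partners, 1 in the thioredoxin system and 1 in detoxification, and 7 fell in glutathione synthesis and 8 in NADPH supply. With upper-quartile factors 2 NRF2 partners rose and 5 NADPH genes fell. On log2(FPKM + 1) and log2(FPKM + 0.1) with a mean FPKM of at least 0.5, 1 superoxide gene rose in place of 2, with 6 tested in place of 9; with no filter 1978 genes fell in all, 1 thioredoxin gene rose and 3 superoxide genes fell. Leaving out 1 library gave 2 to 3 decreases among NRF2 partners. The causes of these differences were not tested.

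With the replicate number as a block, 3 members rose and 4 fell, no member's call changed, and 3431 genes rose and 3182 fell. Same-numbered libraries did not deviate together (correlations of -0.0124, -0.00658 and -0.0103), and no library correlated best with its own number. The counts limit SRXN1 most, with 140 to 193 counts per library.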
